A study of Mus musculus with 8 samples.

Results

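The genes described here are the Eph receptors, their ephrin ligands, the Slits with their Robo receptors, and the netrins with their Unc5 receptors. The families were chosen with earlier results of these data known, so their shares of calls are a description and not a test. A rule on gene symbols took every gene of these families that the array's annotation names on a probe set with a single symbol. The rule found 37 of the 19938 genes: 9 class A and 4 class B Eph receptors, 5 class A and 3 class B ephrins, 3 Slits, 4 Robos, 4 netrins, 1 netrin G and 4 Unc5 receptors. Ntng2, whose probe set carries a second symbol, and Ephb2 were not analysed here.

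The arrays measured total RNA of fibroblasts grown from mouse embryos on an FVB/N background. All 8 samples shared the Daxx knockout genotype: 4 had been given vector and 4 had been given Daxx, the latter as DaxxA (2 samples) and DaxxB (2 samples), names that the labels do not explain. The labels do not give the vector's promoter, whether each line was a clone or a pool, or whether samples of 1 group came from separate cultures, so each p-value sets a difference against the scatter of these arrays, part of which may be technical. The study asked which genes are regulated downstream of Daxx, a histone chaperone and transcriptional regulator.

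Eph receptors are receptor tyrosine kinases, and ephrins are ligands fixed in the membrane of the neighbouring cell. Class A ephrins hang on a lipid anchor and mostly bind EphA receptors, class B ephrins span the membrane and mostly bind EphB receptors, and binding can signal into both cells, usually to repel or to sort them. Slits are large secreted proteins that repel migrating cells and axons through Robo receptors. Netrins are laminin-related secreted proteins that attract through Dcc and neogenin and repel through Unc5 receptors. All of these act on the actin skeleton, and outside the nervous system they guide mesenchymal, vascular and epithelial cells.

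Values are log2 signals, and a difference of 1 is a 2-fold change. Vector replicate 2 stood apart from the other 7 arrays. Its interquartile range was 2.79 against 3.31 to 3.39, and its median over 1015 olfactory receptor genes, used as a gauge of background, was 5.21 against 4.65 to 4.70. Results are therefore given on all 8 arrays and on 7 arrays without it. The Daxx probe set read 7.15 ± 0.216 (SD, n = 4) in vector and 7.35 ± 0.0964 (SD, n = 4) in Daxx arrays, an exact two-sided permutation p of 0.143. On 7 arrays the difference was 0.096 in place of 0.20 (exact permutation p = 0.286, where 0.0571 is the smallest possible), so the directions rest on the labels. Of 15 fibroblast markers, 14 lay above the background gauge on all 8 arrays. That gauge is the 95th percentile of the olfactory receptor genes on the same array, and the exception was Lum.

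In the Daxx arrays 6 of the 37 guidance genes fell and 1 rose. The strongest falls were in Slit2, the ephrin receptor Epha7 and the ephrin Efna5, followed by Slit3, Epha4 and Efna1, while the ephrin Efnb2 rose. The calls were made with limma at an adjusted p below 0.05 over all genes. The 7 called genes are 18.9% of the members, where 4.52% of all genes were called. Called lower were 6 genes (background 2.73%) and called higher 1 gene (background 1.8%). The median difference of the 37 was -0.15, beside -0.03 over all genes.

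On 7 arrays without vector replicate 2, 12 of the 37 were called, 9 lower and 3 higher, which is 32.4% beside a background of 12.8%. The background was 7.57% for lower and 5.26% for higher calls. The 7 genes called on 8 arrays were all among these 12. The 5 added were Efna2, Efna3 and Ephb4, which were lower, and Epha2 and Ntn1, which were higher. The median of the members was -0.02 there, beside 0.02 over all genes. Leaving out any other single array gave fewer calls: 3 when vector replicate 1 was dropped, 4 for vector replicate 3 or 4, 3 for DaxxA replicate 1 or 2, 5 for DaxxB replicate 1 and 4 for DaxxB replicate 2. Slit2, Epha7 and Efna5 were called in all 8 of these fits. Rescaling shifted the balance of calls: quantile normalization gave 6 lower and 3 higher, and subtracting each array's median gave 4 lower and 0 higher. Calls over all genes also rose with quantile normalization and fell with medians subtracted, so these shifts are not particular to the guidance genes. Shares of all genes called are given here only for the fits on 8 arrays and without vector replicate 2.

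**Figure D1:**
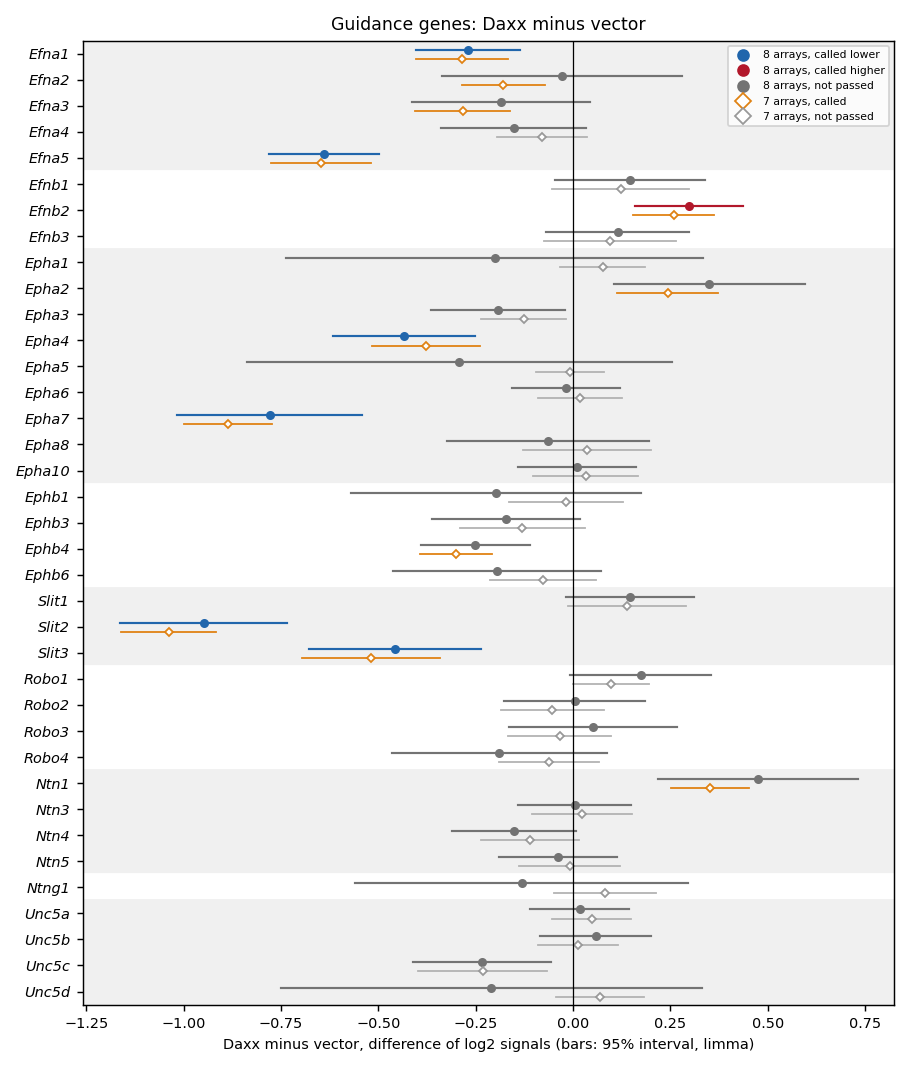
Daxx minus vector for the 37 guidance genes, on the x axis as a difference of log2 signals with its 95% interval from limma. Filled circles are fits on 8 arrays and open diamonds fits on 7 arrays without vector replicate 2; shading separates the families. Slit2 lies farthest to the left at -0.95, and the intervals of genes such as Epha1, Epha5 and Unc5d are wide on 8 arrays and narrow on 7.

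The Slits were the family with the strongest fall, and only Slit1 of its 3 members was not called. Slit2, a secreted repellent that mesenchymal cells make, read 11.36, 10.98, 11.27 and 11.38 in vector replicates 1 to 4, 10.32 and 10.40 in DaxxA and 10.24 and 10.22 in DaxxB. All 4 Daxx values lay below all 4 vector values. It fell 1.93-fold, by 0.95 log2 units (SE 0.0947, adjusted p = 0.000726), and by 1.04 on 7 arrays (SE 0.0546, 2.05-fold, adjusted p = 7.76e-07). These are bulk samples, in which fewer cells that make a transcript and less transcript in each cell cannot be told apart.

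Slit3, a Slit also made by mesenchymal cells, read 6.48, 6.35, 6.65 and 6.66 in vector replicates 1 to 4, 5.96 and 5.95 in DaxxA and 6.13 and 6.26 in DaxxB. The groups did not overlap, and the DaxxA arrays were the lowest. The signal was weak, since only 5 of the 8 arrays lay above the background gauge. Slit3 fell by 0.46 (SE 0.0974, 1.37-fold, adjusted p = 0.0345), and by 0.52 on 7 arrays (adjusted p = 0.00177). Leaving out single arrays ended this call for 6 of the 8, all except vector replicate 2 and DaxxB replicate 2, with adjusted p up to 0.112. Slit1, best known from the nervous system, read 6.41 ± 0.071 (SD, n = 4) in vector and 6.56 ± 0.12 (SD, n = 4) in Daxx arrays, a difference of 0.15 that did not pass (adjusted p = 0.401).

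Among the Robo receptors, through which Slits signal, no gene was called on 8 or on 7 arrays. Robo1 was the only one of the 4 above the background gauge on all 8 arrays. It read 8.60, 8.32, 8.62 and 8.65 in vector replicates 1 to 4, 8.77 and 8.68 in DaxxA and 8.76 and 8.68 in DaxxB. Its Daxx values all lay above its vector values, but the difference of 0.17 (95% interval -0.01 to 0.35) did not pass (adjusted p = 0.352), and it was 0.10 on 7 arrays (adjusted p = 0.203). Robo2, Robo3 and Robo4 stayed below the gauge on every array, so these probe sets give no measured level for them. Robo4 is a receptor of endothelial cells, and Robo2 is the next protein-coding gene after Robo1 on chromosome 16.

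**Figure D2:**
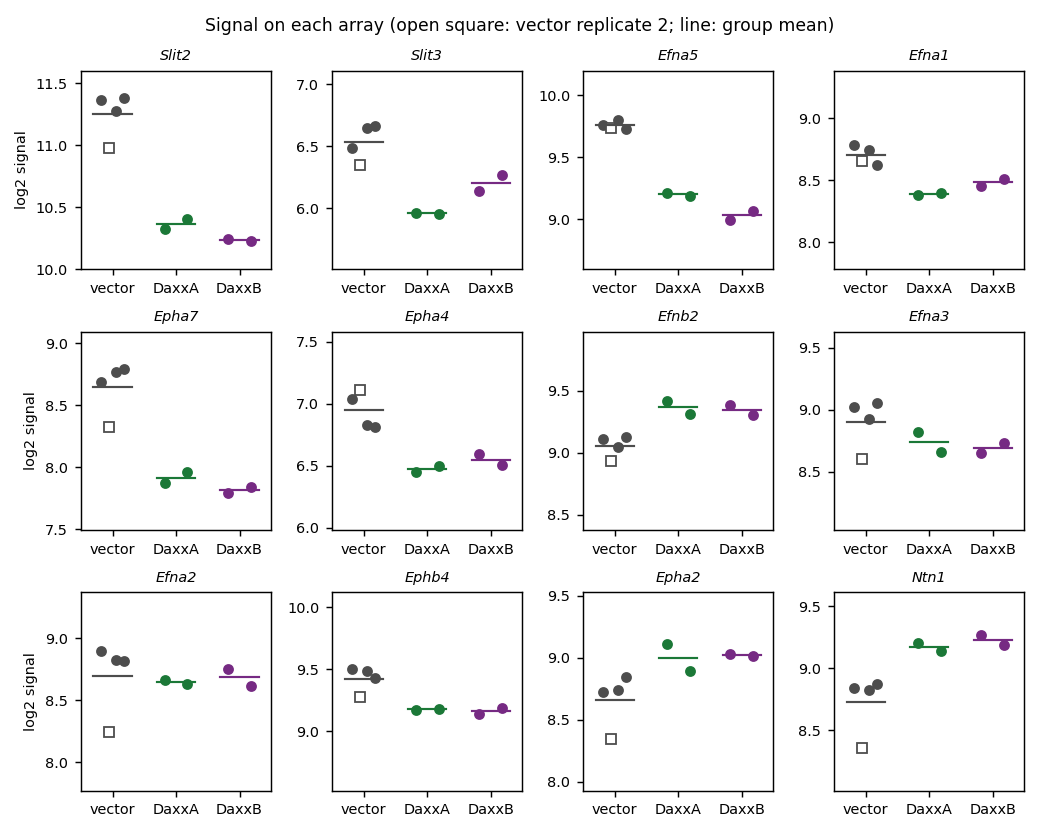
Log2 signal of the 12 guidance genes called on 7 arrays, by array, with vector, DaxxA and DaxxB on the x axis, 1 point per array and a line at the group mean; every panel spans the same range of log2 units. The open square is vector replicate 2, which lies below the other vector arrays for Efna2, Ntn1, Epha2, Slit2 and Epha7, among others. For Slit2, Efna5 and Epha7 all vector arrays, with vector replicate 2, lie above all Daxx arrays.

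Of the 5 class A ephrins 2 fell on 8 arrays and 4 on 7. All 5 had a difference below 0 in both fits, as did 58.2% of all genes on 8 arrays and 42.9% on 7. Efna5, a repellent ligand that binds several EphA receptors and also Ephb2, read 9.76, 9.73, 9.80 and 9.73 in vector replicates 1 to 4, 9.21 and 9.19 in DaxxA and 9.00 and 9.07 in DaxxB. The vector arrays lay close together (SD 0.0329, n = 4), and the DaxxB arrays were the lowest. Efna5 fell by 0.64 (SE 0.0622, 1.56-fold, adjusted p = 0.000631), and by 0.65 on 7 arrays. Leaving out 1 array at a time gave -0.67 to -0.60, all called.

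Efna1, the main ligand of Epha2, read 8.79, 8.66, 8.75 and 8.63 in vector replicates 1 to 4, 8.38 and 8.40 in DaxxA and 8.45 and 8.51 in DaxxB. The groups did not overlap, although the gap between vector replicate 4 and DaxxB replicate 2 was small. Efna1 fell by 0.27 (SE 0.0588, 1.21-fold, adjusted p = 0.0384), and by 0.28 on 7 arrays (adjusted p = 0.00568). Without any 1 of the other 7 arrays it was not called (adjusted p up to 0.131).

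Efna1, Efna3 and Efna4 follow each other as protein-coding genes on chromosome 3. Efna3 read 9.02, 8.61, 8.93 and 9.06 in vector replicates 1 to 4, 8.82 and 8.66 in DaxxA and 8.65 and 8.74 in DaxxB. Vector replicate 2 was the lowest vector array and overlapped the Daxx arrays. The difference was -0.18 on 8 arrays (adjusted p = 0.465), and Efna3 fell by 0.28 on 7 arrays (SE 0.0553, adjusted p = 0.00701). Efna4 read 8.30 ± 0.146 (SD, n = 4) in vector and 8.15 ± 0.0819 (SD, n = 4) in Daxx arrays, which did not pass on 8 arrays (-0.15, adjusted p = 0.455) or on 7 (-0.08). The neighbours Efna1 and Efna3 thus passed together on 7 arrays, and Efna4 did not.

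Efna2 depended on a single array. It read 8.90, 8.24, 8.82 and 8.81 in vector replicates 1 to 4, 8.66 and 8.63 in DaxxA and 8.75 and 8.62 in DaxxB. The difference of -0.03 (adjusted p = 0.928) became a fall of 0.18 on 7 arrays (SE 0.0481, adjusted p = 0.0337). Without vector replicate 1, 3 or 4 it was slightly above 0, at 0.01 to 0.04, so its direction is not settled on 8 arrays.

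In the class B ephrins the difference was above 0 in all 3 genes in both fits, with 1 call. Of all genes, 58.2% lay below 0 on 8 arrays and 42.9% on 7. Efnb2, which marks arterial endothelium and is also made by mesenchymal cells, read 9.11, 8.94, 9.05 and 9.13 in vector replicates 1 to 4, 9.42 and 9.31 in DaxxA and 9.38 and 9.30 in DaxxB. The Daxx arrays all lay above the vector arrays. Efnb2 rose by 0.30 (SE 0.061, 1.23-fold, adjusted p = 0.0292), and by 0.26 on 7 arrays (adjusted p = 0.00475). Without any 1 of the other 7 arrays the call was lost (adjusted p up to 0.102). Efnb1, an X-linked ephrin of craniofacial mesenchyme, differed by 0.15 (adjusted p = 0.497) and Efnb3 by 0.11 (adjusted p = 0.607), neither of which passed. Set against vector separately on 8 arrays, Efnb1 and Efnb3 differed by 0.04 and -0.01 in DaxxA and by 0.25 and 0.24 in DaxxB.

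Of the 9 class A Eph receptors 2 fell. Epha7, which can serve as a repellent receptor or, in short forms, as a brake on it, read 8.69, 8.33, 8.77 and 8.80 in vector replicates 1 to 4, 7.87 and 7.96 in DaxxA and 7.80 and 7.84 in DaxxB. Vector replicate 2 was the lowest vector array, and the groups did not overlap. Epha7 fell by 0.78 (SE 0.105, 1.72-fold, adjusted p = 0.00377), and by 0.89 on 7 arrays (SE 0.0513, 1.85-fold, adjusted p = 1.69e-06).

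Epha4, a receptor that binds ephrins of both classes, read 7.04, 7.11, 6.83 and 6.81 in vector replicates 1 to 4, 6.45 and 6.50 in DaxxA and 6.60 and 6.51 in DaxxB. Here vector replicates 1 and 2 were the higher vector arrays, and all Daxx arrays were lower than every vector array. Epha4 fell by 0.43 (SE 0.0803, 1.35-fold, adjusted p = 0.019), and by 0.38 on 7 arrays (adjusted p = 0.00271). Without vector replicate 1, either DaxxA replicate or DaxxB replicate 2 it was not called (adjusted p up to 0.0726).

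Epha2, the receptor for Efna1, had higher values in the Daxx arrays. It read 8.72, 8.34, 8.74 and 8.84 in vector replicates 1 to 4, 9.11 and 8.89 in DaxxA and 9.03 and 9.02 in DaxxB. The groups did not overlap, with vector replicate 4 and DaxxA replicate 2 closest. The difference was 0.35 on 8 arrays (SE 0.108, adjusted p = 0.13), and Epha2 rose by 0.24 on 7 arrays (SE 0.0581, 1.18-fold, adjusted p = 0.02). Efna1 and its receptor Epha2 thus had opposite signs, of which only that of Efna1 passed on 8 arrays.

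The other 6 class A receptors did not pass on 8 or on 7 arrays. Epha8 and Epha10 lay above the background gauge on all 8 arrays and differed by -0.07 and 0.01, or 0.04 and 0.03 on 7 arrays. Epha1, Epha3, Epha5 and Epha6 lay below it on every array. Epha3 was the only one of these whose groups did not overlap, with 5.57 ± 0.144 (SD, n = 4) in vector and 5.38 ± 0.0402 (SD, n = 4) in Daxx arrays (adjusted p = 0.254). Epha1 and Epha5 took their differences from vector replicate 2. Epha5 read 5.70 there and 4.52 to 4.58 on the other 7 arrays, so that -0.29 on 8 arrays became -0.01 on 7.

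Among the 4 class B receptors none was called on 8 arrays. Ephb4, the receptor for Efnb2 and a marker of venous endothelium, read 9.50, 9.27, 9.48 and 9.43 in vector replicates 1 to 4, 9.17 and 9.18 in DaxxA and 9.14 and 9.19 in DaxxB. The Daxx arrays were all lower than the vector arrays and close to each other (SD 0.0233, n = 4). The difference was -0.25 on 8 arrays (SE 0.0618, adjusted p = 0.0592), and Ephb4 fell by 0.30 on 7 arrays (SE 0.0417, 1.23-fold, adjusted p = 0.000922). Ephb3 differed by -0.17 (adjusted p = 0.388), Ephb6, whose kinase is inactive, by -0.20 (adjusted p = 0.525), and Ephb1 lay below the gauge on every array.

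Netrins and their receptors held no call on 8 arrays. Ntn1, the main secreted netrin, read 8.84, 8.36, 8.82 and 8.87 in vector replicates 1 to 4, 9.20 and 9.14 in DaxxA and 9.27 and 9.18 in DaxxB. Its Daxx values lay above all vector values, among which vector replicate 2 was far the lowest. The difference was 0.47 on 8 arrays (SE 0.113, adjusted p = 0.0523), and Ntn1 rose by 0.35 on 7 arrays (SE 0.0449, 1.28-fold, adjusted p = 0.000525). Ntn3, Ntn4, Ntn5 and the membrane-anchored Ntng1 did not pass in either fit. Ntng1 read 7.67 in vector replicate 2 and 6.76 to 7.01 elsewhere, and the probe set used for it lists a single cDNA, while its other probe set lay below the gauge on every array.

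Unc5b, a dependence receptor for netrins that is also made by endothelium, was the Unc5 gene with signal above the gauge on all 8 arrays. It read 10.35, 10.10, 10.23 and 10.26 in vector replicates 1 to 4, 10.31 and 10.25 in DaxxA and 10.33 and 10.28 in DaxxB. The groups overlapped, the difference was 0.06, and its 95% interval of -0.09 to 0.20 allows a change of at most 1.15-fold. Unc5c read 6.19 ± 0.0622 (SD, n = 4) in vector and 5.96 ± 0.143 (SD, n = 4) in Daxx arrays, close to background, and its difference of -0.23 did not pass (adjusted p = 0.162, or 0.0721 on 7 arrays). Without DaxxB replicate 1 it was -0.31 and called (adjusted p = 0.0415). Unc5a and Unc5d did not pass.

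Counted without a test, the 4 Daxx values lay wholly on one side of the 4 vector values for 12 of the 37 genes (32.4%), where this held for 14.8% of all genes. Of these 8 were lower (background 6.79%) and 4 higher (background 8.02%). Without vector replicate 2 it was 14 of the 37 (37.8%), beside 24.4%, with 10 lower (background 12.9%) and 4 higher (background 11.5%).

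By the limma calls, 4 of the 16 ligands fell and 1 rose, and 2 of the 21 receptors fell and 0 rose, where 2.73% of all genes fell and 1.8% rose. On 7 arrays 6 ligands fell and 2 rose, and 3 receptors fell and 1 rose, where 7.57% of all genes fell and 5.26% rose. All 8 genes that lay below the background gauge on every array were receptors. Of all genes in that class 0.27% were called on 8 arrays and 1.57% on 7. The difference between ligands and receptors was not tested.

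**Figure D3:**
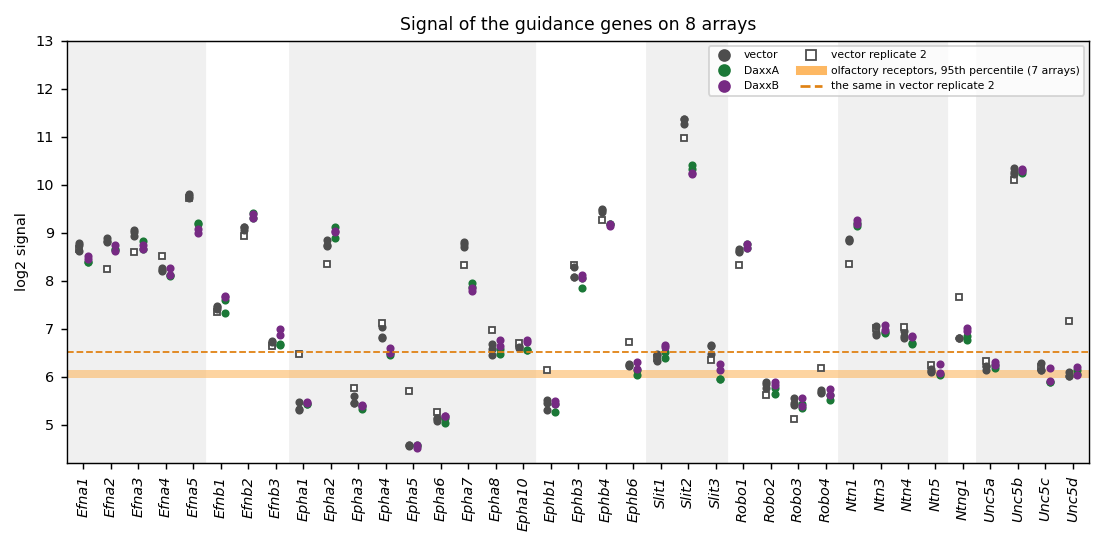
Log2 signal of each of the 37 guidance genes on each array, with genes on the x axis by family; circles are arrays, open squares are vector replicate 2, the band spans the 95th percentile of the olfactory receptor genes on 7 arrays (5.97 to 6.13) and the dashed line is the same percentile in vector replicate 2 (6.51). Signals of different genes come from different probes and are not to be ranked against each other; 23 genes lie above the gauge on all 8 arrays and 8 below it on all 8.

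Of the 37 genes, 23 lay above the background gauge on all 8 arrays, 6 on some and 8 on none. The calls on 8 arrays were 6 of the 23, 1 of the 6 and 0 of the 8. Among all genes above the gauge on all 8 arrays, 6.93% were called, and on 7 arrays 11 of the 23 members and 19.6% of such genes. The rate of calls among all genes was 3.82% for those above it on some arrays and 0.27% for those above it on none.

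The sequence just upstream of the start is shown for the 3 genes called whichever array was left out. It is also shown for Efnb2, the 1 gene called higher on 8 arrays, which kept its call in only 1 of the 8 fits that left out an array. RefSeq listed such a window for 33 of the 37 genes. All are from RefSeq on GRCm38.p6, 250 bases ending at the base before the transcript start and given on the gene's own strand, and capitals mark the GC box GGGCGG or its reverse complement CCGCCC, the motif that Sp1-type factors bind. Slit2 lies at chr5:47982905-47983154 (+), Epha7 at chr4:28812881-28813130 (+, the first of 2 listed starts), Efna5 at chr17:62881318-62881567 (-) and Efnb2 at chr8:8661243-8661492 (-). For Slit2 and Epha7 another RefSeq model begins farther upstream.
Slit2: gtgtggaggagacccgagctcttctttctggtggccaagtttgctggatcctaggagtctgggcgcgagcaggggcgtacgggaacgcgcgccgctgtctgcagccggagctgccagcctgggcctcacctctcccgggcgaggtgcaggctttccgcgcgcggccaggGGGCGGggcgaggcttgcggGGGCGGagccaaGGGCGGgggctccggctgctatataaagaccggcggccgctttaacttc
Epha7: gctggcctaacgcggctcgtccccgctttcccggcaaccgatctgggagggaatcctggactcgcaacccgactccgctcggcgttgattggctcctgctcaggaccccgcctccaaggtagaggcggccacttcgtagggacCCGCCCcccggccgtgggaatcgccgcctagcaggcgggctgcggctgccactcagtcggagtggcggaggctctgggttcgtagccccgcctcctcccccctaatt
Efna5: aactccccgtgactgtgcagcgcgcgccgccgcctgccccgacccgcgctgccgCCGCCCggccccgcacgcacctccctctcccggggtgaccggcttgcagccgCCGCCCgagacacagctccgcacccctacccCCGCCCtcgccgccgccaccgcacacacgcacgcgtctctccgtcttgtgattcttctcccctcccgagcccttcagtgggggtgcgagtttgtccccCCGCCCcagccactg
Efnb2: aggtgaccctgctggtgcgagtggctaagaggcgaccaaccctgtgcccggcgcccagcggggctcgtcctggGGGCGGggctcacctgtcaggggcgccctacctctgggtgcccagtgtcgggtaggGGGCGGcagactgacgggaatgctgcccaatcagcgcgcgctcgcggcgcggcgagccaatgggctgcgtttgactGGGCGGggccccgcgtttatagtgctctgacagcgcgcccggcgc

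These windows are rich in G and C, at 69.6% for Slit2, 69.2% for Epha7, 74.8% for Efna5 and 72% for Efnb2, where the median of 32851 such windows was 52.4%. They hold 3, 1, 4 and 3 GC boxes in that order, and 32.7% of all windows hold at least 1. A TATAAA was found in Slit2 and in Efnb2 (on either strand, 12.4% of all windows). CCAAT or ATTGG was found in Epha7 and Efnb2, and 33.8% of all windows have it. The E-box CACGTG and the AP-1 motif TGANTCA were found in none of the 4, and GGAATG or CATTCC, the TEAD motif, in Efnb2 alone (12.6% of all windows). All 4 windows hold a GC box, and the share of 32.7% is over all windows, not over windows equally rich in G and C. A match of letters is not a binding site, and no motif was tested against the changes.

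The DaxxA and DaxxB arrays were next set against vector separately, with 1 spread estimated over 3 groups. Both comparisons use the same 4 vector arrays, so their values are given side by side. For DaxxA 4 of the 37 genes fell and 0 rose (10.8%, background 1.97%), and for DaxxB 3 fell and 0 rose (8.11%, background 2.69%). The background was 1.45% lower and 0.522% higher for DaxxA, and 1.92% lower and 0.767% higher for DaxxB. Slit2 fell by 0.88 in DaxxA (SE 0.117, adjusted p = 0.0117) and by 1.01 in DaxxB (SE 0.117, adjusted p = 0.00626). Epha7 fell by 0.73 (adjusted p = 0.0432) and by 0.83 (adjusted p = 0.0223). Efna5 fell by 0.55 (adjusted p = 0.00444) and by 0.72 (adjusted p = 0.00113). Slit3 fell by 0.58 in DaxxA (adjusted p = 0.0377) and differed by -0.34 in DaxxB (adjusted p = 0.169). 

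Single arrays decided these counts. Without vector replicate 2, 12 genes were called for DaxxA (background 11.3%), 10 lower (6.8%) and 2 higher (4.46%), and 14 for DaxxB (background 20.5%), 8 lower (9.53%) and 6 higher (10.9%). For DaxxA the count was 0 when either DaxxA replicate was dropped, 1 for vector replicate 3, and 2 for vector replicate 1 or 4 or either DaxxB replicate. For DaxxB it was 1 without either DaxxB replicate. Where only 1 array of a group was left, it was assumed to vary like the other groups. Shares of all genes called are given only for the fits without vector replicate 2. Whether the other counts fell together with calls over all genes is not shown.

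Without vector replicate 2, not all of the 12 genes called for Daxx minus vector passed in both Daxx groups. Epha2 differed by 0.23 in DaxxA and did not pass (SE 0.068, limma adjusted p = 0.0532). For DaxxB 8 genes were called lower, beside 9 for Daxx minus vector. In the same fits, 4 further genes were called in 1 of the 2 Daxx groups. Slit1 read 6.48, 6.39, 6.45 and 6.32 in vector replicates 1 to 4, 6.4 and 6.53 in DaxxA and 6.62 and 6.67 in DaxxB. It rose by 0.23 in DaxxB (SE 0.062, adjusted p = 0.0251). Efnb3 read 6.66, 6.63, 6.72 and 6.75 in vector, 6.67 and 6.68 in DaxxA and 7.0 and 6.87 in DaxxB. It rose by 0.22 in DaxxB (SE 0.0543, adjusted p = 0.0166). For both genes the DaxxB arrays were above all others, and DaxxA overlapped vector.

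Ntng1 read 6.81, 7.67, 6.81 and 6.81 in vector replicates 1 to 4, 6.84 and 6.76 in DaxxA and 6.96 and 7.01 in DaxxB. It rose by 0.17 in DaxxB without vector replicate 2 (SE 0.0483, adjusted p = 0.0297), while that array was higher than any DaxxB array. Unc5c read 6.15, 6.20, 6.15 and 6.28 in vector, 5.88 and 5.88 in DaxxA and 6.18 and 5.90 in DaxxB. It fell by 0.31 in DaxxA (SE 0.0764, adjusted p = 0.024), and DaxxB replicate 1 lay among the vector arrays.

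Slit3 was called in 1 of the 2 comparisons, but the difference between DaxxA and DaxxB was itself not called. DaxxA minus DaxxB was -0.24 for Slit3 (95% interval -0.52 to 0.03), 0.17 for Efna5 (0.01 to 0.33) and 0.13 for Slit2 (-0.19 to 0.44). No guidance gene passed for DaxxA minus DaxxB on 8 arrays, where 0 of all genes did (background 0.0%) and 3 of the 37 members and 846 of the 19938 genes had an unadjusted limma p under 0.05. On 7 arrays it was again 0 of 37 (background 2.15%, 1.36% lower and 0.787% higher), with 12 of the 37 and 4445 of the 19938 genes at an unadjusted limma p under 0.05. Efnb3 came closest. It read 6.68 ± 0.0104 (SD, n = 2) in DaxxA, 6.93 ± 0.0924 (SD, n = 2) in DaxxB and 6.69 ± 0.0521 (SD, n = 4) in vector, and the DaxxA minus DaxxB adjusted p was 0.055 on 7 arrays.

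**Figure D4:**
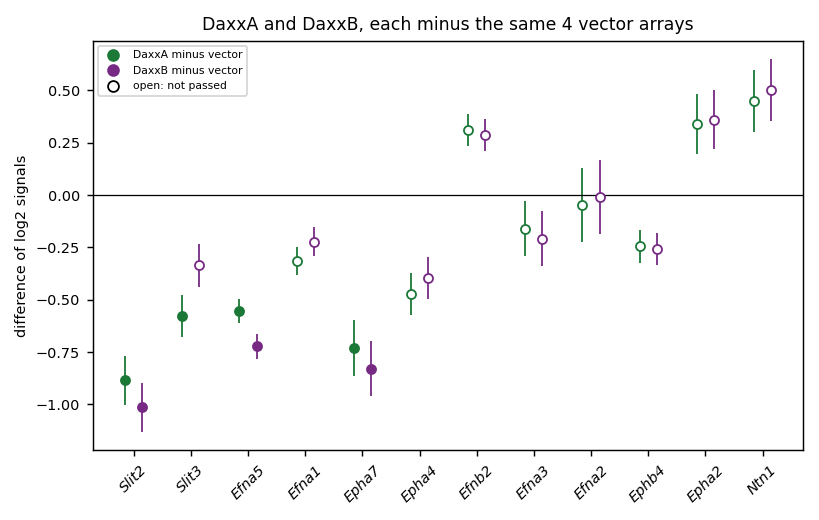
DaxxA minus vector and DaxxB minus vector for the 12 guidance genes called on 7 arrays, as differences of log2 signals from the fit on 8 arrays with the standard error; filled points passed an adjusted p of 0.05. Slit2, Epha7 and Efna5 are filled in both colours, Slit3 only for DaxxA (-0.58), and both colours share the same vector arrays.

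Partners that carry these signals were read from 4 lists chosen by role, of which 3 are described gene by gene. Of 83 measured genes 10 rose and 4 fell (16.9%, beside the 4.52% of all genes called), and on 7 arrays 17 rose and 8 fell (30.1%, beside 12.8%). In the 3 lists described, 28 of 29, 18 of 19 and 15 of 22 genes lay above the background gauge on all 8 arrays. Of all genes above it on all 8 arrays, 6.93% were called, and 19.6% on 7 arrays. The median difference of the 83 was 0.00 on 8 arrays and 0.03 on 7. Leaving out single arrays gave 4 calls (without DaxxA replicate 1 or DaxxB replicate 2) to 25 (without vector replicate 2), and Chn1, Flrt2 and Flrt3, of the 3 lists described, were called in all 8 of those fits. Among those 8 fits, the share of all genes called is given only for that without vector replicate 2.

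Of 29 partners of Eph receptors and ephrins 3 rose and 1 fell. Chn1, the Rac GTPase-activating protein alpha-chimaerin that acts below Epha4, read 7.20, 7.13, 7.24 and 7.18 in vector replicates 1 to 4, 7.73 and 7.70 in DaxxA and 7.59 and 7.62 in DaxxB. It rose by 0.47 (SE 0.0554, 1.39-fold, adjusted p = 0.00185), and no vector value reached the Daxx values. Nck2, an adaptor that links ephrin-B tails and Eph receptors to actin, rose 1.26-fold (adjusted p = 0.0196). Pick1, a PDZ protein that binds Eph receptors and ephrin-B, rose 1.29-fold (adjusted p = 0.0233), and Tiam1, a Rac activator, fell 1.21-fold (adjusted p = 0.0401). Nck2 kept its call in 3, Pick1 in 2 and Tiam1 in 1 of the 8 fits that left out an array.

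Of 19 Slit and Robo partners 2 rose and 0 fell. Gpc1, a heparan sulfate proteoglycan that binds Slit2, read 8.40, 7.79, 8.44 and 8.39 in vector replicates 1 to 4, 9.02 and 8.88 in DaxxA and 9.04 and 9.09 in DaxxB. Vector replicate 2 was far below the other vector arrays. Gpc1 rose by 0.75 (SE 0.141, 1.69-fold, adjusted p = 0.0198), and by 0.60 on 7 arrays (SE 0.0538, adjusted p = 4.53e-05). It was not called without DaxxA replicate 1 or either DaxxB replicate (adjusted p up to 0.0786). Evl, an actin regulator of the Ena and VASP family, rose 1.21-fold (adjusted p = 0.03, called in 1 of 8 fits that left out an array).

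Of 22 netrin and Unc5 partners 4 rose and 2 fell. The Flrt genes, which encode membrane proteins that bind Unc5 receptors and latrophilins, went both ways. Flrt2 read 8.16, 7.99, 8.14 and 8.28 in vector replicates 1 to 4, 8.80 and 8.70 in DaxxA and 9.00 and 8.83 in DaxxB, and it rose by 0.69 (SE 0.0835, 1.61-fold, adjusted p = 0.00219). Flrt3 read 6.94, 7.04, 6.74 and 6.84 in vector replicates 1 to 4, 6.36 and 6.48 in DaxxA and 6.34 and 6.39 in DaxxB, and it fell by 0.50 (SE 0.0727, 1.41-fold, adjusted p = 0.00593). Neither gene's groups overlapped. Flrt1, named after its values were seen, fell by 0.40 (adjusted p = 0.0339) and was called in 2 of the 8 fits that left out an array. Lrrc4c, the membrane ligand of netrin G1, also named after its values were seen, rose 1.48-fold (adjusted p = 0.0383) and was called in 1 of those 8 fits. Mcam, an adhesion molecule reported to bind netrin-1, rose 1.44-fold (adjusted p = 0.0128), and was lost without DaxxA replicate 1 or either DaxxB replicate (adjusted p up to 0.0554). Trio, a Rac activator below Dcc, rose 1.23-fold (adjusted p = 0.0282, called in 1 of 8 such fits).

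**Figure D5:**
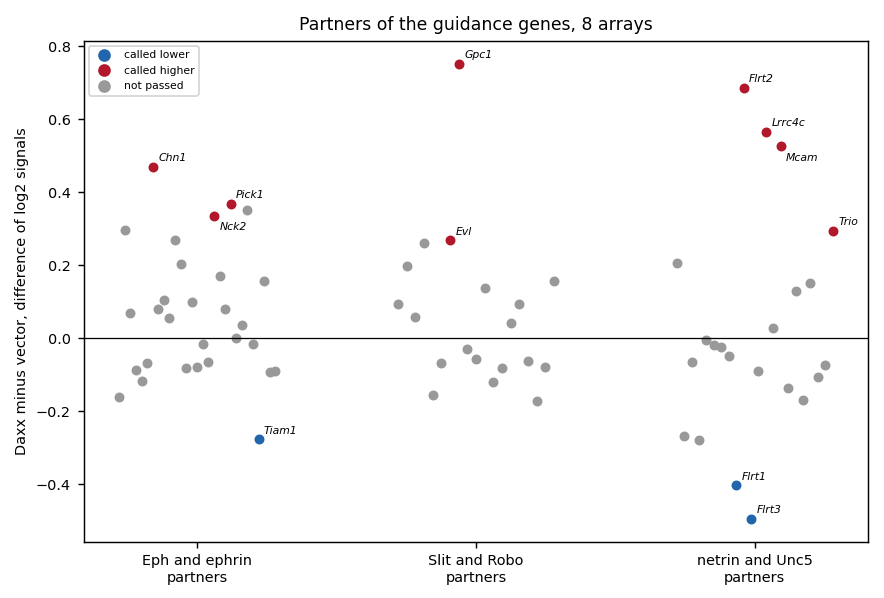
Daxx minus vector on 8 arrays for the partners of the guidance genes, on the y axis as a difference of log2 signals, 1 point per gene in 3 lists; blue and red points passed an adjusted p of 0.05. Gpc1 (0.75) and Flrt2 (0.69) are the highest called points, and Flrt3 (-0.50) the lowest.

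Markers of cell types were read beside these results, because Efnb2, Ephb4, Robo4 and Unc5b are used by endothelium and many guidance genes by neural cells. Of 12 endothelial markers 0 were called on 8 or 7 arrays, and Pecam1, Cdh5, Kdr, Tek, Emcn and Erg lay below the background gauge on all 8. Tie1, Esam and Vwf lay above it on all 8. Averaged over the list, signals were 5.78 to 5.84 in vector replicates 1, 3 and 4, 5.81 to 5.90 with Daxx, and 6.10 in vector replicate 2. Of 11 neural and glial markers Map2 rose (0.60) and Sox2 fell (-0.64). Tubb3, Map2, Syt1 and Sox2 lay above the gauge on all 8 arrays, and Stmn2, Elavl4, Snap25, Gfap and Olig2 below it on all 8. Averaged, they read 6.28 to 6.29 in vector replicates 1, 3 and 4, 6.27 to 6.33 with Daxx, and 6.64 in vector replicate 2. Of 7 epithelial and 7 blood markers 0 were called on 8 or 7 arrays. Krt8, Krt18, Cd68 and Cd3e lay above the gauge on all 8 arrays, and 4 epithelial and 5 blood markers below it on all 8. Beside these short lists, 4.52% of all genes were called on 8 arrays and 12.8% on 7.

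Some fibroblast markers changed as well. Of 15 measured, 4 fell, 1 rose and 10 did not pass on 8 arrays (4.52% of all genes were called). On 7 arrays 6 fell, 1 rose and 8 did not pass (12.8% of all genes). Of all genes above the gauge on all 8 arrays, as 14 of the 15 were, 6.93% were called on 8 arrays and 19.6% on 7. The median difference of the 15 was -0.23 on 8 arrays and -0.01 on 7. Their mean signal was 9.39 to 9.49 in vector and 9.17 to 9.32 in Daxx arrays. Prrx1, a transcription factor of limb mesenchyme, differed by -1.07, Pdgfra by -0.82, Pdgfrb by -0.70 and Twist2 by -0.42, whereas Col1a2 differed by 0.31. The part of these changes in the changes of Slit2, Epha7 and the other guidance genes was not tested. Of 6 smooth muscle and pericyte markers Acta2 alone was called (0.38).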

How the data were processed

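The deposited values are log2 signals that the authors made with Affymetrix Expression Console and RMA, per the submitters' processing notes. RMA corrects background, usually sets arrays to a common distribution and joins probes into 1 value. It compresses changes near background and hides a shift shared by most genes. The deposited arrays did not all share a distribution, since the interquartile range of vector replicate 2 was 2.79 against 3.31 to 3.39 in the others. The versions and the genome build were not given in the sources used here.

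Of 35556 probe sets, 21789 had 1 gene symbol in the platform annotation, 1621 had several and 12146 had none listed. Each gene kept its brightest probe set (by mean over all 8 arrays), which left 19938 genes. All 37 members matched RefSeq symbols by gene number.

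Tests used limma 3.58.1 in R 4.3.3 (lmFit, eBayes) with Benjamini-Hochberg adjustment over all genes: 2 conditions for Daxx minus vector, 3 groups for the rest. The fits were run on simulated data with known changes, where they found larger changes more often than smaller ones. For each gene the simulated noise had the same spread on every array. An array that stands apart, like vector replicate 2, was not simulated, so that run does not show how the calls respond to such an array. No detection calls are given, and the number of arrays limits precision. All members could be named; those called on 8 or 7 arrays, or in 1 Daxx group, are given in full, with up to 4 called genes of each of 3 partner lists and 2 more (Flrt1, Lrrc4c) named after their values were seen; the genes of the remaining list are not reported here. The members and lists were chosen with earlier results of these data known. Alternatives were array scaling, a filter on weak signals, the probe set rule, array weights, a variance trend, a replicate block and leaving out each array.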

Additional observations from a re-analysis of the deposited data

Results flagged for a closer look

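Each gene's 4 vector arrays and 4 Daxx arrays were searched for a single array far from the other 3, by the gap to the nearest array over the whole range (Dixon's test). Chance gives about 1 in 20 groups, and 12 values were found in 74 groups. Of these, 10 were vector replicate 2.

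Vector replicate 2 was above the other vector arrays for 7 genes. It read 8.52 for Efna4 (others 8.21 to 8.26), 6.48 for Epha1 (5.32 to 5.47), 5.70 for Epha5 (4.55 to 4.57) and 6.72 for Ephb6 (6.22 to 6.26). It read 7.67 for Ntng1 (6.81 in the others), 6.19 for Robo4 (5.66 to 5.72) and 7.16 for Unc5d (6.01 to 6.10). It was below the others for 3 genes, with 8.24 for Efna2 (8.81 to 8.90), 8.36 for Ntn1 (8.82 to 8.87) and 8.32 for Robo1 (8.60 to 8.65). Over all 37 genes it was the highest of the 4 vector arrays for 17 and the lowest for 15.

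In the Daxx arrays, DaxxB replicate 2 read 8.27 for Efna4 (others 8.10 to 8.12), and DaxxB replicate 1 read 6.18 for Unc5c (5.88 to 5.90).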

How the results depend on the processing

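Slit2 was called lower in all 18 alternatives (-1.04 to -0.87), and Efna5 and Epha7 in 17, all but the replicate block. Efna1, Efnb2 and Slit3 were called in 9, and Epha4 in 13. The 7 genes called on 8 arrays kept their direction in all 18.

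Counts of guidance genes called for Daxx minus vector (7) were 4 with array medians subtracted, 13 with array weights (vector replicate 2 weighted 0.0521) and 3 to 12 with 1 array left out. For DaxxA (4) they were 2, 14 and 0 to 12. For DaxxB (3) they were 6 with quantile normalization, 14 with array weights and 1 to 14 with 1 array left out. For DaxxA minus DaxxB (0) array weights gave 1. Partner calls (14) were 9 with medians subtracted, 29 with array weights and 4 to 25 with 1 array left out. With both vector replicate 2 left out and the rest quantile normalized, an alternative chosen after seeing the data, the counts were 13 for Daxx, 13 for DaxxA, 15 for DaxxB and 25 for partners. With vector replicate 2 left out and weak genes removed, also chosen after seeing the data, they were 12, 14, 16 and 27, with 1 for DaxxA minus DaxxB. Over all genes, calls were 902 with 8 arrays, 2558 without vector replicate 2, 3231 with array weights, 1402 with quantile normalization and 561 with medians subtracted.

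Deviations of same-numbered arrays from their group means correlated at 0.0238 to 0.162. With 2 arrays in DaxxA and in DaxxB these deviations mirror each other, and arrays of different numbers were not compared. Whether replicate numbers mark pairs was therefore not settled. The replicate block, in which vector replicates 3 and 4 no longer inform the comparison, gave 1 guidance gene for Daxx, 0 for DaxxA and 0 for DaxxB, 2 partners and 162 genes in all.

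Some uncalled differences changed sign. Efna2 was 0.095 with the replicate block and -0.18 to 0.039 with 1 array left out. With array weights Epha1 was 0.061, Unc5d 0.037 and Ntng1 0.080. With 1 array left out they were -0.31 to 0.076, -0.31 to 0.069 and -0.21 to 0.082, each highest without vector replicate 2. Without it and with quantile normalization they were 0.061, 0.057 and 0.079, and without it and weak genes Unc5d was 0.069 and Ntng1 0.082. Signals under the background gauge limit what 8 of the 37 genes can show.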
